A study of Mus musculus with 28 samples.

Results

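Transcripts of genes that copy DNA and divide the cell were followed in dendritic cells of the mouse spleen, which present antigens to T cells. The set held 40 listed genes in 2 lists. The S phase list held 10 genes, Mcm2 to Mcm7, Pcna, Rrm1, Rrm2 and Tyms. The mitosis list held 30 genes, and by its rule it also took in Ccne1, Ccne2, Cdc6, Cdc45 and Uhrf1, which act at the entry into or during S phase. A probe set naming a single gene was found for 39 of the 40 genes, out of 19938 genes with such a probe set on the array. Ccnb1, a mitotic cyclin, had none, so its expression was not analysed here. Genes above a log2 intensity of 5 on at least 3 arrays were tested, which kept 35 of the 39 genes (10 of S phase and 25 of mitosis) among 10452 tested genes.

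The 28 arrays were hybridised with RNA of primary dendritic cells from spleens of 3-month-old mice, and each array was 1 biological replicate by its label. The mice lacking NOX2, labelled GP91 Phox knockout, formed a group with angiotensin II (Ang II, n = 4) and a group with vehicle (n = 3). The C57BL6/J wild-type mice formed groups with Ang II plus the pair hydralazine and hydrochlorothiazide (Hyd/HCTZ, n = 6), with Ang II plus 2-hydroxybenzylamine (2-HOBA, n = 4), with Ang II alone (n = 4) and with vehicle (n = 7). NOX2 is the part of the phagocyte oxidase that makes superoxide, and Ang II is a hormone of blood pressure control. 2-HOBA traps reactive aldehydes that arise when lipids are oxidised, and Hyd/HCTZ joins a drug that widens vessels to a diuretic. The doses, the time of treatment, the sex of the mice and the sort were not stated in the labels used here. Whether mice or isolated cells were treated was not settled by them. The titles of the 4 knockout samples with Ang II read Ang I while their descriptions read Ang II, and the descriptions were followed. The labels give the knockout as the genotype of the mice and name no other allele. With bulk RNA, fewer dividing cells and less RNA per dividing cell cannot be told apart.

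During S phase the hexameric helicase made of the Mcm2 to Mcm7 proteins unwinds DNA, Pcna clamps the polymerases onto it, and ribonucleotide reductase (Rrm1 and Rrm2) and thymidylate synthase (Tyms) supply nucleotides. In mitosis the kinase Cdk1 acts with cyclins, motor proteins such as Kif11 build the spindle, Bub1 and Bub1b hold anaphase until chromosomes are attached, and the chromosomal passengers Incenp, Aurkb and Birc5 correct attachments and help to divide the cell. Many S phase genes are driven by E2F factors, and many mitosis genes by the DREAM and MuvB complexes, which bind CHR elements, often beside CCAAT boxes bound by NF-Y. Differentiated dendritic cells of the spleen divide little, while their precursors still divide there.

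Promoters are shown for Pcna and Rrm1 of S phase and Bub1 and Cdk1 of mitosis, which had the smallest p values of their lists with Hyd/HCTZ among genes with a promoter in the table used, and for Mcm5, a helicase gene that was not called there and was chosen for contrast after its values were seen. Each covers 250 bases before and 50 bases after the start of the gene (RefSeq, GRCm38.p6): Pcna at chr2:132253131-132253430, minus strand, Rrm1 at chr7:102441445-102441744, plus strand, Mcm5 at chr8:75109259-75109558, plus strand, Bub1 at chr2:127831810-127832109, minus strand and Cdk1 at chr10:69352863-69353162, minus strand. Capitals mark matches on either strand to E2F sites (TTTCCCGC, TTTGGCGC, TTTCGCGC or TTTGCCGC), CHR elements (TTTGAA or TTCGAA) and the CCAAT box (CCAAT).
Pcna: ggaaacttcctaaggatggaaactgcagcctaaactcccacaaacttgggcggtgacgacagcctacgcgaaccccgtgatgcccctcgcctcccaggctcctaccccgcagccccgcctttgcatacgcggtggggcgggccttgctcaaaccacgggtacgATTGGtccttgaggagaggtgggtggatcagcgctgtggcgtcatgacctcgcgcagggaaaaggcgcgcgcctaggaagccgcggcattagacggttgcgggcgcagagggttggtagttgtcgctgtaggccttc
Rrm1: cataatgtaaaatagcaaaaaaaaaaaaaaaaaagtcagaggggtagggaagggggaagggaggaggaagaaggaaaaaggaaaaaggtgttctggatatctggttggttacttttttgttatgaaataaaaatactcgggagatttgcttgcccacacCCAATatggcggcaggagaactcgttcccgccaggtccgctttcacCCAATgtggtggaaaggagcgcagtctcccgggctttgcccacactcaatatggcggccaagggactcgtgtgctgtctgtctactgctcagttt
Mcm5: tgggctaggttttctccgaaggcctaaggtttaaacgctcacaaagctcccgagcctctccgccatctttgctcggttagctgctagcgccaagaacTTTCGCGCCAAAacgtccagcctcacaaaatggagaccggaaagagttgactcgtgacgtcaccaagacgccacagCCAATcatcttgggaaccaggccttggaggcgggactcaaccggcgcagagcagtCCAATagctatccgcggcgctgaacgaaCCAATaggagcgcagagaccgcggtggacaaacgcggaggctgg
Bub1: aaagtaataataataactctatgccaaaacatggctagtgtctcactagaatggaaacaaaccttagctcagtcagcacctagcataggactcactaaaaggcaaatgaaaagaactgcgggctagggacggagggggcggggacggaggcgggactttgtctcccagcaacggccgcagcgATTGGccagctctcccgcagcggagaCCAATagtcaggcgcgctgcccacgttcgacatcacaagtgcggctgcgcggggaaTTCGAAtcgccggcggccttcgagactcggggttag
Cdk1: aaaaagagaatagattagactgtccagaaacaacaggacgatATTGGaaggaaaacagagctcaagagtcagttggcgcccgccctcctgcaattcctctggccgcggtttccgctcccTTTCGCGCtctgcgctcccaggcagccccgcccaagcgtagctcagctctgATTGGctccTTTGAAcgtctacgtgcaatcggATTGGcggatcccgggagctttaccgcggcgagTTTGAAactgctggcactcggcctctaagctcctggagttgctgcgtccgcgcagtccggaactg

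Pcna and Rrm1 held CCAAT boxes and neither of the other words. In Mcm5, 2 E2F words overlapped, on opposite strands, and 3 CCAAT boxes lay nearer to the start. Bub1 held a CHR element at position 15 after the start and CCAAT boxes at -42 and -68, and Cdk1 held 2 CHR elements at -15 and -71, 3 CCAAT boxes and an E2F word. Promoters were in the table for 32 of the 40 genes, Ccnb1 among them, and 3 genes had more than 1 promoter there. Among 25 promoters of 23 mitosis genes, 16 (64%) held a CHR element and 3 (12%) an E2F word. Among 10 promoters of 9 S phase genes, 2 (20%) held a CHR element and 4 (40%) an E2F word. Over all 32851 promoters of the table these shares were 19.2% and 2.26%. A CCAAT box was in 20 (80%) of the mitosis promoters, 9 (90%) of the S phase promoters and 37.4% of all promoters. These are matches of letters and not measured binding. Incenp, Aurkb, Mcm4, Foxm1, Tpx2, Ccna2, Kif20a and Ccne2 are named only.

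Values are log2 intensities on the RMA scale, on which a difference of 1 is 2-fold. Dendritic cell genes were present on all arrays: Itgax ranged over 7.01 to 9.68, Flt3 over 7.15 to 9.45, Cd74 over 10.8 to 11.9 and Zbtb46 over 5.07 to 6.40. The array labelled wild-type vehicle replicate 2 stood apart, with a mean correlation of 0.852 with the other arrays. Cybb, the gene of NOX2, was at 6.41 to 7.18 on the 7 knockout arrays and at 8.35 to 9.75 on the other wild-type arrays. On that array it was at 6.34, below the knockout arrays in spite of the wild-type label. The array was also low over all tested genes, with a mean of 5.63 against 6.01 or more on the others. It was the lowest of its group for 57% of them. Whether label or array quality lies behind its Cybb level was not tested. A total of 3 array sets were read from unnamed control probe sets after the data were seen. Set 1 held 4 and 3 knockout arrays, 2 wild-type Ang II arrays and 3 vehicle arrays, set 2 the 4 arrays with 2-HOBA, 2 wild-type Ang II arrays and 4 vehicle arrays, and set 3 the 6 arrays with Hyd/HCTZ and no other. Treatment with Hyd/HCTZ and array set therefore cannot be told apart.

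Of the 39 measured genes, 4 did not reach the filter: Ccne2 (highest level 4.99), a cyclin of S phase entry, Kif20a (5.05, above 5 on 1 array), a motor of cytokinesis, Ttk (4.81), a spindle checkpoint kinase, and Melk (4.92), a mitotic kinase. Just inside the filter were Cenpf and Prc1, each above 5 on 3 arrays, and Cenpe, on 5 arrays. Bub1, Plk1 and Tpx2 were above 5 on 6 arrays each. Without the Hyd/HCTZ arrays 29 genes passed (10 of S phase and 19 of mitosis), so Bub1, Plk1, Tpx2, Cenpe, Cenpf and Prc1 entered the tests only through the arrays with Hyd/HCTZ. Pcna and Top2a were each read by 2 probe sets of their own, and the one with the higher mean was kept. The SD within groups had a median of 0.343 over the 35 genes and of 0.319 over all tested genes, with the largest for Rrm1 (0.58), Mki67 (0.58) and Rrm2 (0.57).

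Averaged over the 10 S phase genes, the 6 arrays with Hyd/HCTZ had mean levels between 6.78 and 7.13, above all 22 other arrays, of which knockout Ang II replicate 4 came nearest at 6.76. The mean over all tested genes parted these arrays in the same way, at 6.33 to 6.54 with Hyd/HCTZ and at most 6.28 elsewhere. The separation is therefore not particular to the S phase genes. The group mean of the S phase genes was 6.93 ± 0.12 with Hyd/HCTZ (SD, n = 6). It was 6.07 ± 0.18 with 2-HOBA (n = 4), 6.10 ± 0.26 with Ang II alone (n = 4) and 6.11 ± 0.37 with vehicle (n = 7) in wild-type cells. In knockout cells it was 6.08 ± 0.46 with Ang II (n = 4) and 6.03 ± 0.20 with vehicle (n = 3). Apart from the Hyd/HCTZ group, the 5 groups differed by less than the spread between their arrays. The single arrays ran from 5.87 to 6.27 with 2-HOBA, from 5.79 to 6.40 with Ang II alone and from 5.35 to 6.42 with vehicle, so these groups overlapped.

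The mitosis genes had another order. Their mean level was 6.12 ± 0.15 with Hyd/HCTZ, 5.04 ± 0.20 with 2-HOBA, 5.30 ± 0.10 with Ang II alone and 5.30 ± 0.18 with vehicle in wild-type cells (SD, n = 6, 4, 4 and 7). In knockout cells it was 5.57 ± 0.43 with Ang II and 5.29 ± 0.25 with vehicle (n = 4 and 3). This mean takes in Bub1, Plk1, Tpx2, Cenpe, Cenpf and Prc1, which reached the filter only through the Hyd/HCTZ arrays. The high level of the Hyd/HCTZ group is therefore partly set by the filter and is a description. The mean over all tested genes was also highest in that group, at 6.45 against 6.06 to 6.14 in the other groups. For the mitosis mean, the 2-HOBA arrays ran from 4.86 to 5.24 and the arrays with Ang II alone from 5.18 to 5.40, with overlap. In the knockout Ang II group, 3 arrays lay between 5.25 and 5.49 and replicate 4 lay at 6.20.

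**Figure D1:**
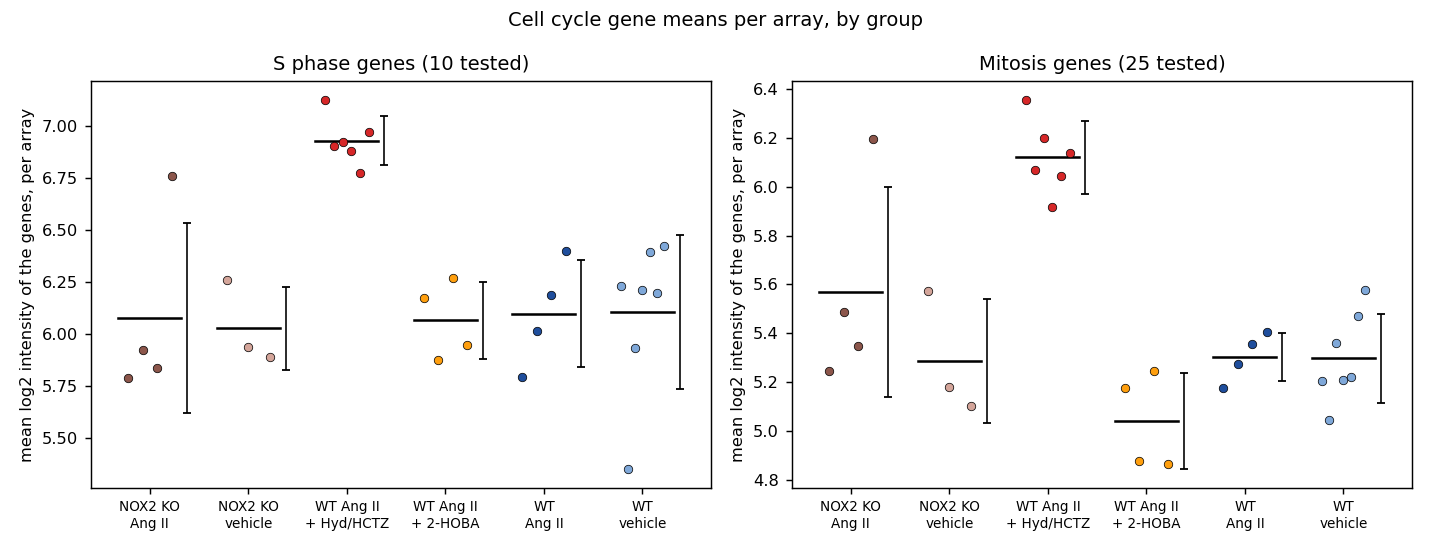
Mean log2 intensity of the 10 tested S phase genes (left) and the 25 tested mitosis genes (right) on each of the 28 arrays, 1 point per array, with the group mean as a line and the SD as a bar. The 6 Hyd/HCTZ arrays lie between 6.78 and 7.13 for S phase and between 5.92 and 6.36 for mitosis, and 1 knockout Ang II array lies apart from the other 3 at 6.76 and 6.20. The mean over all tested genes, not shown, is also higher on the Hyd/HCTZ arrays, at 6.33 to 6.54 against at most 6.28 elsewhere. The mitosis mean includes genes that reached the filter only through the Hyd/HCTZ arrays.

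**Figure D2:**
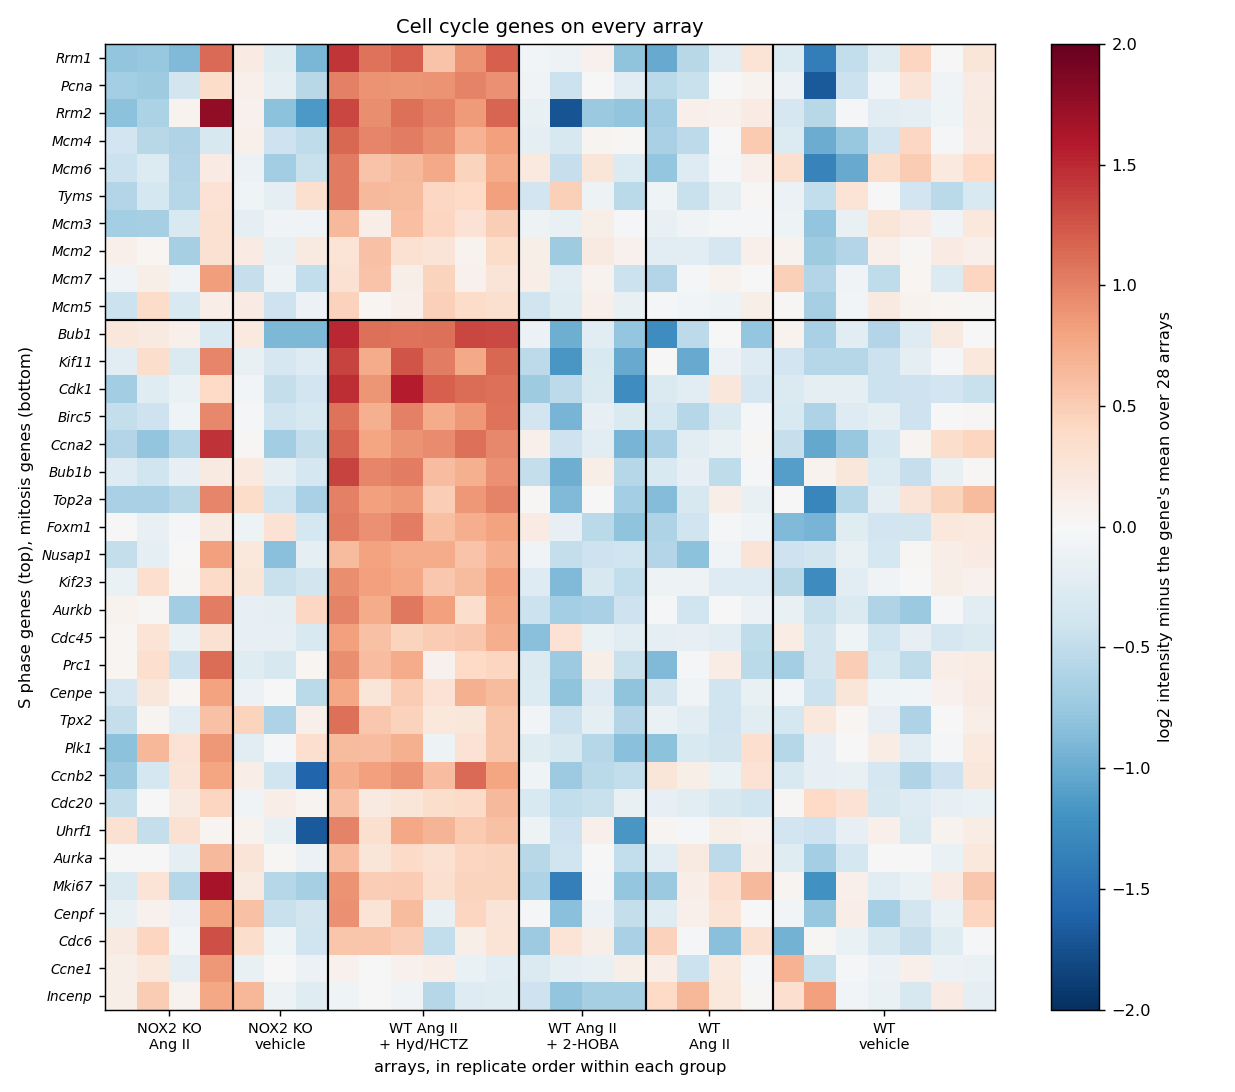
Level of each of the 35 tested genes on each array, as log2 intensity minus the mean of that gene over the 28 arrays, with red above and blue below that mean and groups parted by vertical lines. Nearly all genes are red on the 6 Hyd/HCTZ arrays, Incenp is blue on the 4 arrays with 2-HOBA, and knockout Ang II replicate 4 is red for most genes. Levels are not corrected for the higher mean of all tested genes on the Hyd/HCTZ arrays.

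With Hyd/HCTZ added to Ang II, 16 of the 29 genes that reached the filter without the Hyd/HCTZ arrays rose and 1 fell (limma, Benjamini-Hochberg adjusted p below 0.05), 5 of 10 S phase genes and 11 of 19 mitosis genes higher. Among all 10081 genes that reached the filter in this way 23.6% were called higher and 24.8% lower. The nucleotide supply and clamp genes and the mitotic kinase Cdk1 rose, and Incenp fell. The median difference over all tested genes was above 0 in this comparison, at 0.29 over these genes and 0.32 over all 10452 tested genes, so each gene was tested against that shift. The medians of the 29 genes, less the shift, were 0.59 for S phase and 0.63 for mitosis. Differences below come from all 10452 tested genes, less the shift of 0.32 unless stated. There 18 of 35 genes were called higher and 1 lower, with 23.7% of all tested genes called higher and 25% lower. This count takes in Bub1 and Cenpe, which entered the tests through the group in which they were high, so it is a description. The median difference was 0.57 over the 10 S phase genes and 0.54 over the 25 mitosis genes, against 0 for all tested genes by construction. Against 0 in place of the shift, 27 genes were called higher and 1 lower, with 40.8% of all tested genes called higher. With no filter the shift was -0.15, and 34 of the 39 measured genes were called higher and 0 lower, with 27.3% of all 19938 genes called higher. With only genes above 7 on at least 3 arrays the shift was 0.64, and 2 of 11 genes of the set were called. Pcna, Rrm1 and Top2a did not pass there, and the share of all such genes called was not counted.

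The clamp and nucleotide genes rose in 4 of 4. Pcna had a lowest level of 9.91, a median of 9.92 and a highest of 10.02 with Hyd/HCTZ, against 8.47, 8.57, 9.0 and 9.09 with Ang II alone. Its difference was 0.85 (SE 0.26, limma adjusted p = 0.00776), and all arrays with Hyd/HCTZ lay above all 22 other arrays. Rrm1, the large subunit of ribonucleotide reductase, had a lowest level of 6.68, a median of 7.23 and a highest of 7.53 with Hyd/HCTZ, against 5.10, 5.55, 5.89 and 6.38 with Ang II alone, a difference of 1.11 (SE 0.34, limma adjusted p = 0.00795). Groups did not overlap, although knockout Ang II replicate 4 reached 7.24. Rrm2, the small subunit, rose by 0.83 (limma adjusted p = 0.0403), with levels of 6.74 to 7.23 against 5.20 to 6.06. Tyms rose by 0.51 (limma adjusted p = 0.0368), with levels of 5.88 to 6.52 against 5.03 to 5.50.

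Of the 6 helicase genes 1 rose relative to the shift. Mcm4 had a lowest level of 6.47, a median of 6.72 and a highest of 6.91 with Hyd/HCTZ, against 5.13, 5.25, 5.75 and 6.30 with Ang II alone, a difference of 0.77 (SE 0.22, limma adjusted p = 0.00552). It too lay above all 22 other arrays. Mcm6 differed by 0.62 (limma adjusted p = 0.0694), Mcm3 by 0.18, Mcm2 by 0.16, Mcm7 by 0.12 and Mcm5 by -0.01, and these 5 did not pass the test against the shift. Mcm2 had levels of 5.83 to 6.34 with Hyd/HCTZ and of 5.42 to 5.85 with Ang II alone, so its groups overlapped. Against 0, Mcm2 was called (0.48, limma adjusted p = 0.0466), as were Mcm3, Mcm4 and Mcm6, so 4 of the 6 were. In that test, which keeps the shift in each difference, 40.8% of all tested genes were called higher. With no filter, where the shift was -0.15, all 6 were called higher (limma adjusted p = 3.74e-05 to 0.0335), against 27.3% of all genes. How many helicase genes passed thus depended on the shift. The helicase subunits form 1 complex, yet their differences ran from -0.01 to 0.77 on the same arrays, and the difference between subunits was not tested.

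Genes of S phase entry mostly did not pass. Cdc45, which joins the Mcm proteins in the active helicase, rose by 0.56 (SE 0.16, limma adjusted p = 0.00625), with levels of 6.04 to 6.42 with Hyd/HCTZ and 5.09 to 5.42 with Ang II alone. Uhrf1, which keeps DNA methylation through replication, differed by 0.27, Cdc6, a loader of the helicase, by -0.05 and Ccne1, the cyclin of S phase entry, by -0.29. For Cdc6 and Ccne1 the levels overlapped between the groups.

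Among the mitotic cyclins, their kinase and Foxm1, 3 of 4 rose. Cdk1 had a lowest level of 5.97, a median of 6.24 and a highest of 6.65 with Hyd/HCTZ, against 4.80, 4.86, 5.31 and 4.75 with Ang II alone. Its difference was 1.06 (SE 0.19, limma adjusted p = 4.97e-05), or at least 0.99 when 5 is put in place of the Ang II mean of 4.93. On all 22 other arrays Cdk1 lay at 5.48 or below. Ccna2, a cyclin of S and G2 phases, rose by 0.90 (limma adjusted p = 0.0195), and Foxm1, a transcription factor of mitosis genes, by 0.82 (limma adjusted p = 0.00221; at least 0.37 with 5 in place of its Ang II mean of 4.55). Ccnb2, a mitotic cyclin, differed by 0.38 and did not pass (limma adjusted p = 0.21), with levels of 7.33 to 7.84 against 6.58 to 7.0.

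Of the spindle checkpoint genes, Bub1b rose by 0.87 (limma adjusted p = 0.00157; at least 0.82), with levels of 5.83 to 6.57 with Hyd/HCTZ and 4.70 to 5.17 with Ang II alone. Bub1 reached the filter only on the Hyd/HCTZ arrays, so its difference is a description. It had a lowest level of 5.32, a median of 5.45 and a highest of 5.74 with Hyd/HCTZ, against 2.98, 3.71, 4.23 and 3.45 with Ang II alone. Every array outside the Hyd/HCTZ group was at 4.46 or lower for Bub1, under the filter level. With 5 in place of the Ang II mean the difference was at least 0.15, while the fitted difference was 1.56 (SE 0.23). Cdc20, which activates the anaphase-promoting complex, differed by 0.36 and did not pass (limma adjusted p = 0.0688).

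The chromosomal passengers moved in opposite directions. Birc5 had a lowest level of 7.16, a median of 7.39 and a highest of 7.54 with Hyd/HCTZ, against 6.10, 5.88, 6.16 and 6.41 with Ang II alone, a difference of 0.91 (SE 0.21, limma adjusted p = 0.000694). Aurkb, the kinase of the complex, rose by 0.60 (SE 0.22, limma adjusted p = 0.0218), with levels of 6.12 to 6.81 against 5.37 to 5.76. Incenp, its scaffold, had a lowest level of 6.25, a median of 6.66 and a highest of 6.83 with Hyd/HCTZ, against 7.22, 7.49, 7.03 and 6.84 with Ang II alone. It fell by 0.85 relative to the shift (SE 0.20, limma adjusted p = 0.0012) and by 0.53 against 0 (limma adjusted p = 0.0301), with all Hyd/HCTZ arrays below all Ang II arrays. The highest Hyd/HCTZ array and the lowest Ang II array lay at 6.83 and 6.84. With no filter its difference was -0.38 and did not pass (limma adjusted p = 0.141).

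Of the spindle, kinetochore and cytokinesis genes Kif11, Nusap1 and Kif23 rose. Kif11, the motor that pushes spindle poles apart, had a lowest level of 6.12, a median of 6.47 and a highest of 6.72 with Hyd/HCTZ, against 5.39, 4.37, 5.26 and 5.11 with Ang II alone, a difference of 1.08 (SE 0.23, limma adjusted p = 0.00037). Nusap1, a microtubule binder, rose by 0.69 and Kif23, a motor of cytokinesis, by 0.61. Cenpe, a kinetochore motor that also entered the tests through the Hyd/HCTZ arrays, had a fitted difference of 0.46. It averaged 5.10 with Hyd/HCTZ and 4.32 with Ang II alone, and with 5 in place of the lower mean nothing of its difference was left after the shift. Aurka, Plk1, Tpx2, Cenpf and Prc1 differed by 0.05 to 0.54 and did not pass.

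Mki67 and Top2a are often used as markers of dividing cells, and the difference between them was not tested. Mki67, the Ki-67 protein of cycling cells, had a lowest level of 7.02, a median of 7.18 and a highest of 7.60 with Hyd/HCTZ, against 5.96, 6.83, 7.04 and 7.35 with Ang II alone. Its difference was 0.11 (SE 0.34, limma adjusted p = 0.811), the groups overlapped, and its sign turned with quantile normalization (-0.05) and with the filter at 7 (-0.22). Top2a, which untangles DNA before chromosomes part, rose by 0.82 (SE 0.32, limma adjusted p = 0.0333), with levels of 7.04 to 7.54 against 5.68 to 6.68. That call was lost when any of 6 single arrays was left out, with quantile normalization and with the replicate number as a block (differences of 0.66 to 0.84, limma adjusted p = 0.0516 to 0.13). It was also lost with the filter at 7, where the difference was smaller still.

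Among the 29 genes that reached the filter without them, all Hyd/HCTZ arrays lay above all arrays with Ang II alone for 8 of 10 S phase genes and 15 of 19 mitosis genes, against 33.4% of all genes that did so. They lay above all 22 other arrays for 8 of the 29 genes, Pcna, Mcm4, Cdk1, Bub1b, Kif23, Cdc45, Foxm1 and Uhrf1, against 19.6%, a share not far from that of the set. Over all tested genes both shares were 34.4% and 20.2%. In Cdk1, Bub1b and Foxm1, the mean with Ang II alone was below 5.

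**Figure D3:**
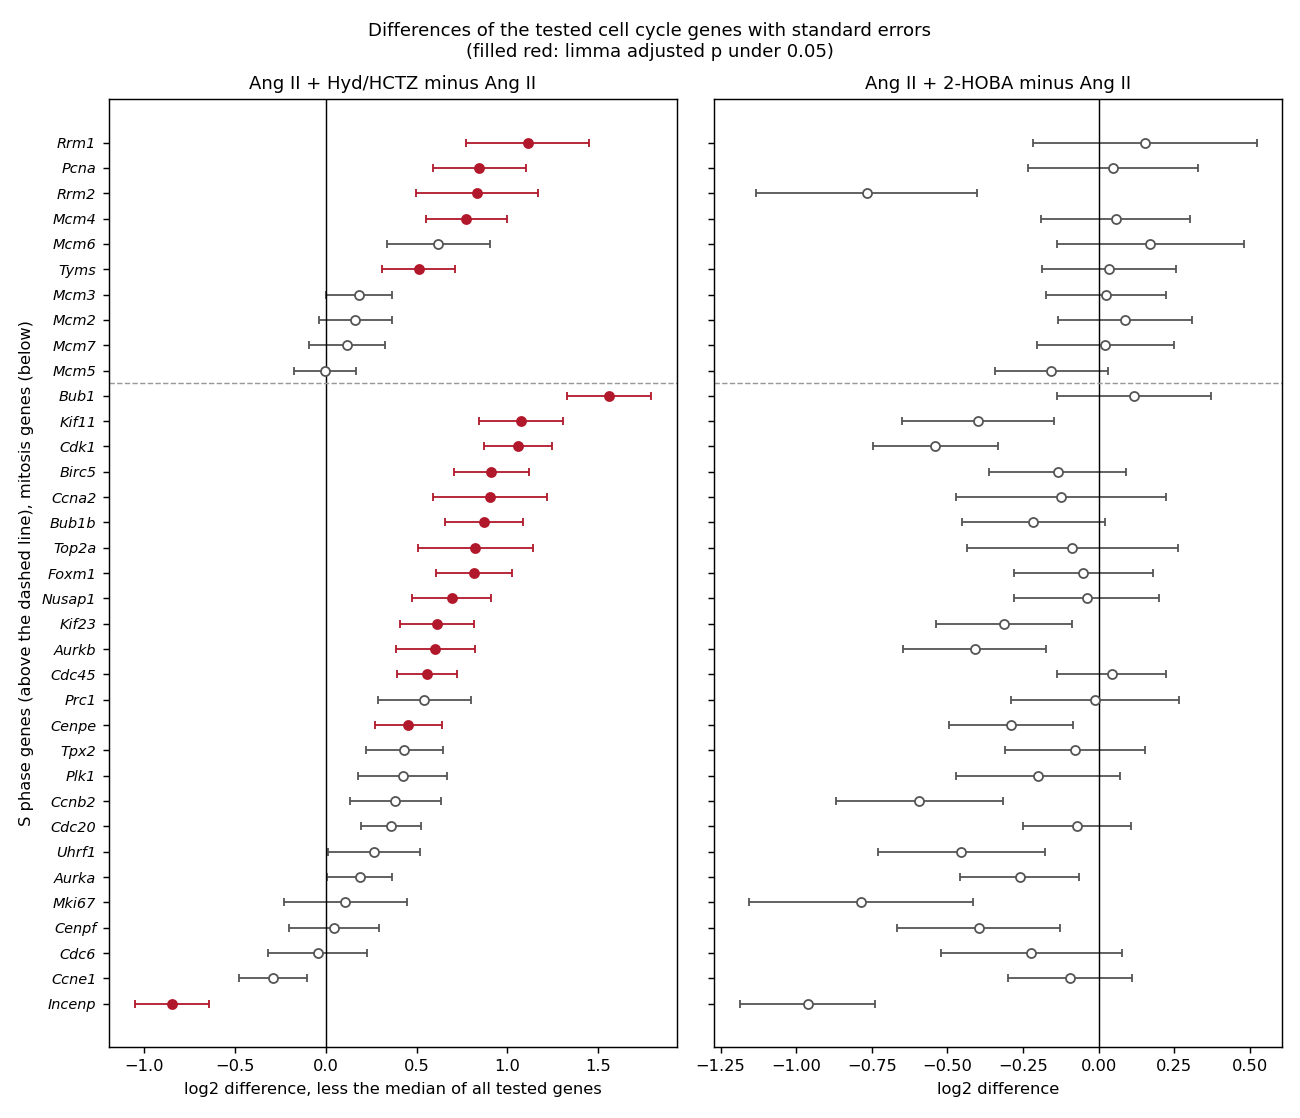
Difference of each tested gene with limma's standard error, for Ang II with Hyd/HCTZ minus Ang II after subtracting the median of all tested genes (left) and for Ang II with 2-HOBA minus Ang II (right), with S phase genes above the dashed line and the 2 panels on different scales. In the left panel 18 genes are called higher and Incenp is called lower. In the right panel none is called, and the mitosis genes lie mostly left of 0. Bub1, Plk1, Tpx2, Cenpe, Cenpf and Prc1 reached the filter only through the Hyd/HCTZ arrays.

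Other genes of the same processes were read from wider lists, counted over genes that reached the filter without the Hyd/HCTZ arrays and set beside the 23.6% called higher and 24.8% called lower among all such genes. Of 27 further mitosis genes 10 rose and 0 fell, Cenpa, the centromeric histone, by 1.01. Of 36 further replication genes 10 rose and 2 fell, led by Tk1, thymidine kinase, which rose by 1.45 (limma adjusted p = 1.27e-05), and the share that rose was near that of all genes. Of 15 genes that brake the cycle 3 rose and 3 fell, with the stress-induced Gadd45b up by 2.78. Of 19 genes listed as drivers of G1 and of entry into the cycle 5 rose and 4 fell. That list also held genes not limited to G1, the Cdk activator Cdc25b at -1.17 and the Cdk subunit Cks1b, up by 2.37. For both of these lists too the share that rose was near that of all genes. The median differences were 0.51 for mitosis, 0.12 for replication, 0.01 for brakes and 0.01 for G1 drivers. Rfc4, a subunit of the clamp loader (0.99, at least 0.29), Ncaph of condensin (0.91, at least 0.11) and the kinase inhibitor Cdkn2c (1.37, at least 0.18) entered the tests through the Hyd/HCTZ arrays, and with such genes the called counts were 15 higher and 0 lower of 37 mitosis genes, 10 and 2 of 38 replication genes, and 5 and 3 of 19 brakes.

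Cell type markers moved in the same comparison, in which 25% of all tested genes were called lower and 23.7% higher. Erythroid markers were lower in 8 of 10 tested genes (median -1.60), B cell markers in 11 of 13, neutrophil markers in 8 of 10 and NK cell markers in 5 of 8. Of 10 T cell markers 7 fell and 2 rose, while conventional dendritic cell markers rose in 10 of 14, plasmacytoid markers in 5 of 8 and red pulp macrophage markers in 7 of 12. These counts did not set apart markers that reached the filter only through the Hyd/HCTZ arrays, so they are a description. Clec10a, Clec4a4 and Ccr9, counted as rising, averaged 3.19, 4.80 and 4.27 with Ang II alone. With 5 in place of these means, Clec4a4 rose by at least 1.83 and Ccr9 by at least 0.94. Nothing was left for Clec10a after the shift. The mean erythroid level was 4.34 to 4.78 with Hyd/HCTZ and 5.09 to 6.37 with Ang II alone, and that of conventional dendritic cell markers 7.96 to 8.13 against 6.68 to 7.12. The erythroid genes Klf1, Gata1, Rhag, Kel and Tspo2 did not reach the filter. The part of these cell types, and of the array set, in the rise of the cell cycle genes was not tested.

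**Figure D4:**
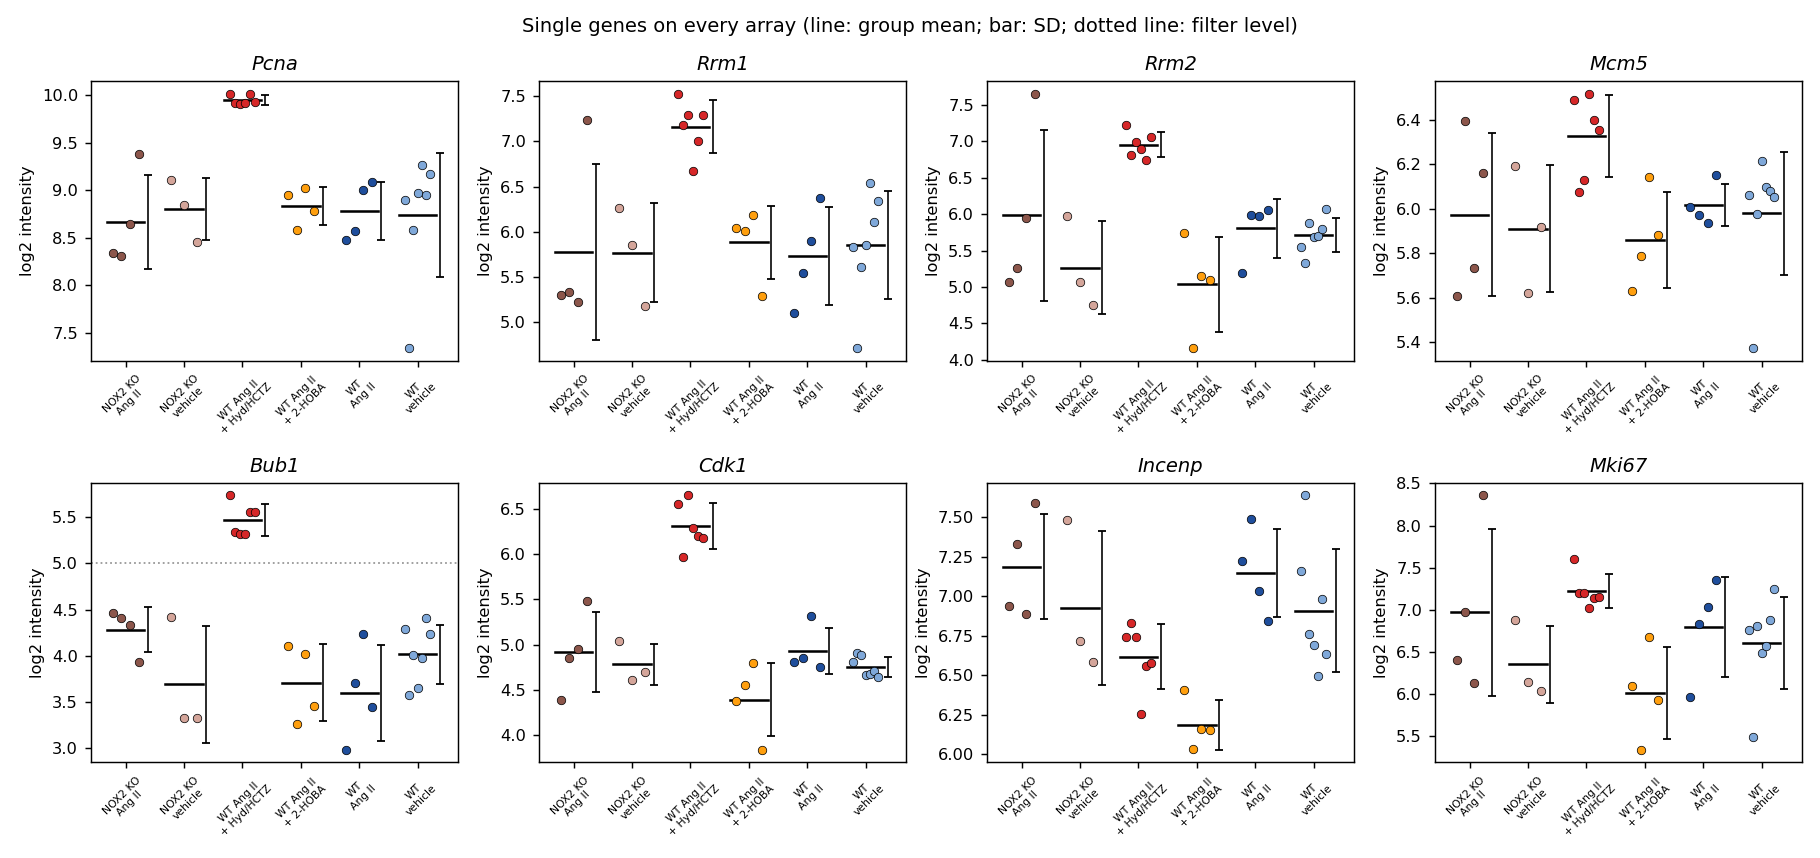
Levels of 8 genes on every array by group, with group means as lines and SDs as bars; axes differ between genes and none starts at 0. Pcna, Bub1 and Cdk1 lie higher on the 6 Hyd/HCTZ arrays than on all others, Bub1 lies under the dotted filter level of 5 elsewhere, Incenp has its lowest group mean with 2-HOBA, and Rrm1, Rrm2 and Mki67 have 1 high knockout Ang II array.

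With 2-HOBA added to Ang II, no gene of the set was called, and most mitosis genes had differences below 0 while the S phase median lay near that of all tested genes. Of 25 mitosis genes 23 had differences below 0, with a median of -0.22, and of 10 S phase genes 8 had differences above 0, with a median of 0.04 (all tested genes 0.05). The 25 include Bub1, Plk1, Tpx2, Cenpe, Cenpf and Prc1, which reached the filter only through the Hyd/HCTZ arrays. Each of them averaged below 5 both with 2-HOBA and with Ang II alone. limma called 0 of the 35 genes and 0 of all 10452 genes (0%). At an unadjusted limma p below 0.05, 5 of the 35 genes were lower and 0 higher, against 1.81% of all tested genes lower. The mitosis median was -0.34 to -0.11 when any 1 array was left out, with the value nearest 0 without Ang II replicate 4. The S phase median was -0.06 without Ang II replicate 1. The genes of a list vary together across arrays, so the count of signs is a description.

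Incenp differed most. It had levels of 6.40, 6.03, 6.16 and 6.15 with 2-HOBA, against 7.22, 7.49, 7.03 and 6.84 with Ang II alone. All 4 arrays with 2-HOBA lay below all 4 with Ang II, and below all other arrays but 1 of the Hyd/HCTZ group. The difference was -0.96 (SE 0.22, limma adjusted p = 0.977). Within array set 2, which held the 4 arrays with 2-HOBA and 2 with Ang II alone, it was -0.75 (limma adjusted p = 0.599). Aurkb, its partner kinase, had levels of 5.33, 5.09, 5.11 and 5.35 against 5.74, 5.37, 5.76 and 5.64, also without overlap (-0.41, SE 0.24, limma adjusted p = 0.977). These were the 2 of 35 genes whose 2-HOBA arrays all lay below the Ang II arrays, against 1.06% of all tested genes. Birc5 differed by -0.13.

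The other differences with an unadjusted limma p below 0.05 belonged to Cdk1, Ccnb2, Mki67 and Rrm2. Mki67 had levels of 6.09, 5.34, 6.68 and 5.93 with 2-HOBA and of 5.96, 6.83, 7.04 and 7.35 with Ang II alone, a difference of -0.79 (SE 0.37, limma adjusted p = 0.977). The groups overlapped through Ang II replicate 1. Cdk1 had levels of 4.37, 4.56, 4.79 and 3.84 against 4.80, 4.86, 5.31 and 4.75 (-0.54, SE 0.21), nearly all of them under 5. Ccnb2 had levels of 6.62, 5.99, 6.17 and 6.22 against 6.95, 6.84, 6.58 and 7.0 (-0.59, SE 0.28), with overlap through 1 array of each group. Rrm2 had levels of 5.74, 4.16, 5.15 and 5.09 against 5.20, 5.99, 5.97 and 6.06 (-0.77, SE 0.37), and without 2-HOBA replicate 2 the difference was -0.48.

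Other S phase genes had smaller differences. Mcm5 differed by -0.16, Mcm2 by 0.09, Mcm6 by 0.17, Rrm1 by 0.15 and Pcna by 0.05, and all groups overlapped. All 9 spindle, kinetochore and cytokinesis genes had differences below 0, between -0.40 and -0.01, and all 4 mitotic cyclin, kinase and Foxm1 genes between -0.59 and -0.05. Of the 9, Plk1, Tpx2, Cenpe, Cenpf and Prc1 reached the filter only through the Hyd/HCTZ arrays and averaged below 5 in both groups compared. Uhrf1 differed by -0.45 and Top2a by -0.09. Of 37 further mitosis genes 25 had differences below 0 (median -0.13). At an unadjusted limma p below 0.05, 2 of the 37 were lower, against 1.81% of all tested genes. Of 38 further replication genes 22 had differences above 0 (median 0.07). When array set entered as a block, the S phase median was -0.26 and the mitosis median -0.37, so the sign of the S phase median depended on the array sets, and within set 2 the medians were -0.17 and -0.28.

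Several marker lists had differences of 1 sign in the same comparison. All 10 erythroid markers had differences below 0 (median -0.83), as had all 10 neutrophil markers (median -0.60), while all 13 B cell markers (median 0.40) and all 8 plasmacytoid markers (median 0.42) had differences above 0, and limma called none of them. At an unadjusted limma p below 0.05, 7 erythroid and 2 neutrophil markers were lower and 3 B cell and 2 plasmacytoid markers higher. Of all tested genes 1.81% were lower at this threshold. The share of all tested genes that was higher is not given here, so the counts of higher markers are a description. The mean erythroid level was 4.55 to 5.15 with 2-HOBA and 5.09 to 6.37 with Ang II alone. The part of these cells in the mitosis differences was not tested.

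**Figure D5:**
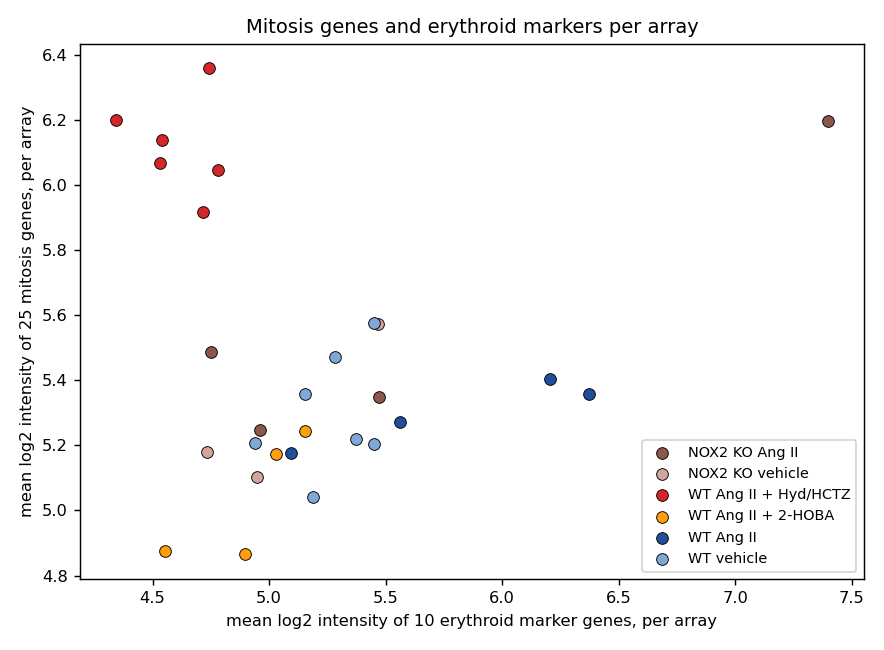
Mean log2 intensity of 25 mitosis genes (vertical axis) against that of 10 erythroid marker genes (horizontal axis), 1 point per array. Knockout Ang II replicate 4 lies at 6.20 and 7.40, the 6 Hyd/HCTZ arrays lie high for mitosis (5.92 to 6.36) and low for erythroid markers (4.34 to 4.78), and the 4 arrays with 2-HOBA lie at 4.86 to 5.24 and 4.55 to 5.15. The mean over all tested genes, not shown, is also higher on the Hyd/HCTZ arrays than on all others. The mitosis mean includes genes that reached the filter only through the Hyd/HCTZ arrays.

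Ang II alone gave no called change of the set in wild-type cells. limma called 0 of 35 genes (0% of all tested genes), and at an unadjusted limma p below 0.05 there were 0 of 35, against 2.54% of all tested genes. The median difference was 0.02 for S phase and -0.02 for mitosis, with 5 of 10 and 12 of 25 genes above 0. The smallest p values belonged to Bub1, with a difference of -0.43 (SE 0.22) and means of 3.59 with Ang II and 4.02 with vehicle, both under 5, and to Cdc20 (-0.26, SE 0.16). Mcm6 had the smallest p of S phase (-0.16, SE 0.27), with levels of 5.90, 6.41, 6.63 and 6.77 with Ang II and a lowest of 5.33, a median of 6.99 and a highest of 7.18 with vehicle. The lowest was that of vehicle replicate 2, and without it the difference was -0.37. The groups overlapped for every tested gene of the set. Mki67 differed by 0.19 (SE 0.33), Top2a by -0.20 (SE 0.31), Cdk1 by 0.17 (SE 0.18) and Mcm2 by -0.05 (SE 0.20). Without vehicle replicate 2 these were 0.00 for Mki67, -0.40 for Top2a, 0.20 for Cdk1 and -0.15 for Mcm2, and the medians were -0.13 for S phase and -0.08 for mitosis. Of 10 erythroid markers 9 had differences above 0 (median 0.45), none of them called by limma and 3 at an unadjusted p below 0.05. All 12 red pulp macrophage markers had differences below 0 (median -0.70), 5 of them at an unadjusted limma p below 0.05 and none called. The part of these cells in the differences of the set was not tested.

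In knockout cells the mitosis genes lay above 0 with Ang II in 23 of 25, with a median of 0.26, but that median rested on 1 array. The 25 include Bub1, Plk1, Tpx2, Cenpe, Cenpf and Prc1, which reached the filter only through the Hyd/HCTZ arrays. Each of them averaged below 5 in both knockout groups. limma called 0 of 35 genes (0% of all tested genes), and 4 were higher at an unadjusted limma p below 0.05, against 2.83% of all tested genes in either direction. These were Mcm7, Bub1, Uhrf1 and Ccnb2. Mcm7 had levels of 6.05, 6.25, 6.06 and 6.96 with Ang II and of 5.67, 6.02 and 5.63 with vehicle, without overlap (0.56, SE 0.25). Bub1 had levels of 4.46, 4.41, 4.33 and 3.93 with Ang II and of 4.42, 3.32 and 3.33 with vehicle, all under 5 (0.59, SE 0.27). Uhrf1 differed by 0.63 (SE 0.30), and by 0.09 without vehicle replicate 3, whose level was 4.13. Mki67 differed by 0.62, Cdk1 by 0.14, Mcm2 by -0.12 and Top2a by 0.01. Without Ang II replicate 4 Mki67 differed by 0.15, Cdk1 by -0.05, Mcm2 by -0.24, Top2a by -0.39, Mcm7 by 0.35 and Ccnb2 by 0.34 in place of 0.61. Without it the medians were 0.06 for mitosis and -0.24 for S phase, and with it the S phase median was -0.06. The erythroid median was 0.47 with that array and 0.01 without it.

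That array, knockout Ang II replicate 4, was the highest of its 4 arrays for 32 of the 35 genes, 9 of S phase and 23 of mitosis, against 27.6% of all tested genes. Mki67 reached 8.36 on it, against 6.41, 6.97 and 6.13 on the other 3 arrays of its group. Rrm2 reached 7.65 there, Top2a 7.51, Ccna2 7.35, Rrm1 7.24 and Birc5 7.40, while Bub1 was at 3.93, the lowest of the 4. Its mean erythroid level was 7.40, against 4.75 to 5.47 on the other 3, and its neutrophil level 8.72, against 6.57 to 7.5. Its red pulp macrophage level was 8.14, against 6.92 to 7.27. Its B cell level was lower, at 6.93 against 7.86 to 8.15, as was its T cell level, at 5.51 against 5.86 to 5.97. Knockout vehicle replicate 1 had a neutrophil level of 8.50 and a mitosis mean of 5.57. The part of any of these cells in the levels of knockout Ang II replicate 4 was not tested. On the Hyd/HCTZ arrays, all of array set 3, erythroid markers were at 4.34 to 4.78 and the mitosis mean at 5.92 to 6.36. How these levels relate was not tested.

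Loss of NOX2 gave no called change of the set with either treatment. With vehicle, limma called 0 of 35 genes (0.00957% of all tested genes, 1 gene) and 0 at an unadjusted limma p below 0.05, against 6.29% of all tested genes. The medians were -0.06 for S phase and 0.02 for mitosis, and -0.17 and -0.02 without vehicle replicate 2 of the wild type. Aurkb differed by 0.37 (SE 0.23), Mcm7 by -0.28 (SE 0.22) and Uhrf1 by -0.45 (SE 0.27; 0.094 without knockout vehicle replicate 3). Mki67 differed by -0.25, Top2a by -0.13, Mcm2 by 0.18 and Cdk1 by 0.02, and without wild-type vehicle replicate 2 Mki67 differed by -0.44, Top2a by -0.33 and Mcm2 by 0.085. With array weights Mcm6 was called lower (-0.75, SE 0.20, limma adjusted p = 0.0145), while its unweighted difference was -0.33, and -0.54 without wild-type vehicle replicate 2, whose level was the lowest, at 5.33. Mcm6 had levels of 6.56, 5.98 and 6.23 in knockout cells and a median of 6.99 and a highest of 7.18 in wild-type cells. All knockout arrays were of array set 1. Wild-type vehicle arrays had Mcm6 at 6.99, 5.33 and 5.66 in set 1 and at 6.87 to 7.18 in set 2. Genotype was therefore partly tied to array set.

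With Ang II, limma called 0 of 35 genes between knockout and wild-type cells (0.0478% of all tested genes, 5 genes), and 5 of the 35 were higher at an unadjusted limma p below 0.05, against 6.83% of all tested genes in either direction. These were Bub1, Kif11, Cdc45, Prc1 and Cenpe. Bub1, Prc1 and Cenpe entered the tests only through the Hyd/HCTZ arrays, which are not part of this comparison, as did Plk1, Tpx2 and Cenpf of the mitosis list. Among the arrays compared, Prc1 and Cenpe lay above 5 only on knockout replicate 4, at 5.47 and 5.38. Kif11 had levels of 5.16, 5.73, 5.09 and 6.35 in knockout cells and of 5.39, 4.37, 5.26 and 5.11 in wild-type cells (0.55, SE 0.25), with overlap, and without knockout replicate 4 the difference was 0.29. Bub1 differed by 0.69 (SE 0.25), with all 8 arrays under 5. Cdc45 had levels of 5.63, 5.87, 5.46 and 5.91 against 5.40, 5.42, 5.38 and 5.09, without overlap (0.39, SE 0.18, limma adjusted p = 0.666). Mcm7 differed by 0.34, Mki67 by 0.17, Mcm2 by 0.11, Top2a by 0.08 and Cdk1 by -0.01. Without knockout Ang II replicate 4 Mcm7 differed by 0.13, Mki67 by -0.29, Top2a by -0.32, Cdk1 by -0.20, Prc1 by 0.31 in place of 0.59 and Cenpe by 0.22 in place of 0.43. The mitosis median was 0.28, with 22 of 25 genes above 0, and without knockout Ang II replicate 4 it was 0.04. The S phase median was -0.04 with that array and -0.34 without it. Mitosis medians of this comparison and of Ang II over vehicle in knockout cells share the knockout Ang II arrays.

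No gene of the set was called for a difference in the effect of Ang II between the genotypes. For the interaction limma called 0 of 35 genes (0% of all tested genes), and 2 of the 35 had an unadjusted limma p below 0.05, against 2.46% of all tested genes. These were Bub1 (1.02, SE 0.35) and Cenpe (0.63, SE 0.29), both read mostly under 5. Mcm7 differed by 0.63 (SE 0.32), Mki67 by 0.42 (SE 0.52), Top2a by 0.21 (SE 0.49), Mcm2 by -0.07 (SE 0.31) and Cdk1 by -0.04 (SE 0.29). The mitosis median was 0.25, and -0.03 without knockout Ang II replicate 4. Without that array Bub1 was at 1.14, Cenpe at 0.42, Mcm7 at 0.42 and Mki67 at -0.04.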

How the data were processed

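RNA of the 28 samples was hybridised to Affymetrix arrays as biotin-labelled cRNA, per the labels' protocols. The deposited values are log2 intensities made by the authors with RMA in Partek 6.6, per the submitters' processing notes. Whether all arrays were normalized in 1 run is not given in the sources used here. Of 35556 probe sets, 21789 named 1 gene, 1621 several and 12146 none; the probe set with the highest mean stood for each of 19938 genes. Testing was limited to genes that passed 5 on 3 or more arrays. limma 3.58.1 (R 4.3.3) fitted 6 group means over all 28 arrays, with eBayes and Benjamini-Hochberg adjustment over 10452 genes, and a gene was called at an adjusted p below 0.05. Only in the Hyd/HCTZ comparison was each gene tested against the median over the tested genes. Where a group mean lay below 5, a bound used 5 in its place. The members, lists and tests were chosen with earlier results of these data known. The text gives in full the S phase and mitosis genes with the smallest p values of each comparison, the markers Mki67, Top2a, Mcm2 and Cdk1 in each, and the 2 called genes with the smallest p of each wider list. Promoters came from RefSeq. The fit was tested on simulated data. No arrays had identical values, and precision is set by how many arrays each group has. Alternatives changed the filter, scaling, array weights, probe sets, blocks and arrays.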

Additional observations from a re-analysis of the deposited data

Results flagged for a closer look

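An array far from the others of its group was found in 15 of 205 groups of values examined, where chance gives about 1 in 20. In the knockout Ang II group, replicate 4 was highest for Rrm1 (7.24, next 5.34), Top2a (7.51, next 5.98), Ccna2 (7.35, next 5.33) and the mean of the S phase genes (6.76, next 5.92). In the wild-type vehicle group, replicate 2 was lowest for Mcm3 (5.02), Mcm5 (5.37), Pcna (7.34) and Mki67 (5.49). That array was the lowest of its 7 for 21 of the 35 tested genes, and 57% of all tested genes were lowest on it. With Ang II alone, replicate 1 was lowest for Mcm7 (5.55) and Rrm2 (5.2), and replicate 4 for Cdc45 (5.09). With 2-HOBA, replicate 2 was lowest for Mcm2 (5.04, next 5.84). With Hyd/HCTZ, replicate 1 was highest for Mki67 (7.6) and Ttk (4.81, below the filter level), and replicate 4 was lowest for Top2a (7.04).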

How the results depend on the processing

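Hyd/HCTZ over Ang II depended on which genes set the median: with no filter 34 genes were called (median 1.035 for S phase and 0.9025 for mitosis), with genes above 7 there were 2 (0.2856 for mitosis), and against 0 the medians were 0.8839 and 0.8609. Fewer genes enter above 7, 11 of the set. Leaving out 1 array gave 15 to 18 calls, lowest without Ang II replicate 1. In the main fit 23.7% of all tested genes were called higher and 25% lower. Such shares were not counted above 7, without 1 array or with the replicate number as a block. Above 7, Pcna (0.52), Rrm1 (0.79) and Top2a (0.50) no longer passed, and Mki67 was at -0.2186 (quantile normalization -0.0461). The array set could not be fitted as a block there. The filter on the other 22 arrays, and the values of single genes without knockout Ang II replicate 4 or wild-type vehicle replicate 2, were chosen after seeing the data. For 2-HOBA over Ang II the S phase median was -0.257 with the array set as a block, Mcm6 -0.2576 and Mcm2 -0.0914, and Mcm6 was -0.1025 within set 2. Between knockout and wild type with vehicle, array weights called 1 gene, Mcm6. Replicate numbers did not pair samples: correlations of deviations ran from -0.35 to 0.37. With the replicate number as a block, Hyd/HCTZ gave 17 calls and the other comparisons 0. The cause was not tested for any of these.

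The other reversals were of differences that no setting called. In wild-type cells, Ang II over vehicle, Mcm2 was 0.0066 (quantile), 0.0288 (replicate block) and 0.1856 (set 1), Mcm6 0.0244 (replicate block) and 0.1626 (set 1), Top2a 0.0781 (mean of probe sets), 0.0922 (replicate block) and 0.0273 (set 1), and Cdk1 -0.0381 (set 1). In knockout cells Top2a was -0.0108 (common array median), -0.1003 (array weights), -0.0232 (mean of probe sets) and -0.0633 (replicate block). Knockout over wild type with vehicle, Cdk1 was -0.0139 (quantile), -0.0702 (replicate block), -0.0021 (set block) and -0.0859 (set 1), Mki67 0.0075 (replicate block), 0.0757 (set block) and 5e-04 (set 1), Top2a 0.093 (mean of probe sets), 0.235 (replicate block), 0.3268 (set block) and 0.394 (set 1), and Mcm2 -0.0843 (array weights). With Ang II, array weights gave Mki67 -0.1593, Top2a -0.0934 and Mcm2 -0.0321, the mean of probe sets gave Top2a -0.0082, and Cdk1 was 0.0198 against the median and 0.0888 in set 1. For the interaction Cdk1 was 0.0054 (quantile), 0.057 (replicate block) and 0.1747 (set 1), Mcm2 0.0522 (array weights), and Top2a -0.1013 (mean of probe sets), -0.1555 (replicate block) and -0.0187 (set 1).

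Leaving out 1 array turned the sign of further differences. The interaction's mitosis median ran from -0.0349 to 0.4243. For Hyd/HCTZ Mki67 ran from -0.1515 to 0.2587, and for 2-HOBA Mcm6 from -0.0047 to 0.2999 and Top2a from -0.2751 to 0.0771. For Ang II over vehicle in wild-type cells, Mcm2 ran from -0.1484 to 0.0029 and Mcm6 from -0.3671 to 0.0183. In knockout cells Cdk1 ran from -0.0503 to 0.3127, Mcm2 from -0.2402 to 0.0806 and Top2a from -0.3882 to 0.3074. For knockout over wild type with Ang II, Cdk1 ran from -0.2001 to 0.1628, Mcm2 from -0.0067 to 0.3141, Mki67 from -0.2909 to 0.4514 and Top2a from -0.3173 to 0.2253. With vehicle, Cdk1 ran from -0.1039 to 0.1125, Top2a from -0.4254 to 0.0865 and Uhrf1 from -0.7802 to 0.094. For the interaction, Cdk1 ran from -0.2251 to 0.1378, Mcm2 from -0.19 to 0.1308, Mki67 from -0.0392 to 0.7031 and Top2a from -0.1908 to 0.5049. Levels under 5 on most arrays, as of Bub1, Cenpe and Prc1, limit the size of their differences.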
